A study of Mus musculus with 9 samples.

Results

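The genes described here are MYC with its partners and the machinery that builds ribosomes. They are 40 mouse genes chosen by name: the transcription factor Myc and 4 members of its network, 31 proteins of the nucleolus that make ribosomal RNA or assemble it into subunits, and 4 metabolic enzymes whose genes are textbook MYC targets. Every probe whose gene name in the array files was one of these genes was taken, which gave 75 probes among the 41174 on the array, and 40 genes among the 21164 that could be named. Of the 75 probes, 73 passed the filter on dim signal, and the probe with the highest mean signal stood for each gene. All 40 genes were tested. The probe that stood for each of them was well above background on all 9 arrays, and no member probe was saturated.

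MYC binds DNA as a pair with MAX, at the E-box CACGTG, and raises transcription of genes for cell growth. MXD1 and MXI1 also pair with MAX but repress, so that they oppose MYC. Ribosome production, from transcription of ribosomal DNA by RNA polymerase I through processing of the precursor RNA to export of the subunits, is among the best known outputs of MYC, and proliferating pro-B cells depend on it.

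The study asked what the C-terminal domain of the B-lineage transcription factor EBF1 contributes in cells that have lost their own Ebf1. All samples were pro-B cells transformed by the Abelson leukaemia virus (A-MuLV), on a C57Bl/6 background, with the genotype Ebf1fl/fl;RERTCre, in which 2 µM 4-hydroxy-tamoxifen (4-OHT) activates Cre to delete Ebf1. The EBF1ΔC group received the retroviral construct pmys-EBF1ΔC-IRES-GFP, which encodes EBF1 without its C-terminal domain, and the EBF1wt group received pmys-EBF1wt-IRES-GFP. In both groups the drug followed 24 h after transduction, the GFP+ cells were sorted 5 days later, and RNA was taken after at least another 2 weeks. The Mock group was mock-transduced, given the same drug, and harvested 4 days after it, before the cells died. Each group has 3 arrays, and the labels do not say whether these came from separate cultures. If they did not, each p-value reflects the scatter of these samples alone, which may be technical.

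Levels below are log2 signal after subtraction of the array's own 75th percentile, and differences are log2 with the standard error (SE) of the linear model. Levels of different genes come from different probes and are not set against each other. A gene "passed" at a Benjamini-Hochberg adjusted p under 0.05 over all 12034 genes tested (limma, two-sided), and was "called" if it also differed at least 2-fold. The 10 pro-B marker genes were above background in every group. The mRNA probe of Ebf1 stood at 3.80 ± 0.06 in EBF1ΔC, 3.06 ± 0.17 in EBF1wt and 1.45 ± 0.28 in Mock (SD, n = 3 arrays each). Its signal was thus 0.74 ± 0.15 (SE) higher in EBF1ΔC than in EBF1wt (limma adjusted p = 0.0194). The probe does not separate the deleted gene from the construct. The Mock arrays were scanned on a day of their own, on slides that held no other group, so that slide, scan day, time after tamoxifen, transduction and sorting cannot be told apart from the group in any comparison with Mock. EBF1ΔC and EBF1wt shared 2 slides. The array of EBF1wt replicate 2 stood apart from the other EBF1wt arrays and had the lowest array weight, 0.367, followed by EBF1ΔC replicate 3 with 0.487, and both lay on 1 of the shared slides. In RNA of bulk cells, fewer cells of a type and less RNA per cell cannot be told apart.

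The E-boxes near the start sites of these genes are shown first, since they are the DNA element that ties MYC and MAX to the group. RefSeq promoters of the build GRCm38.p6 (250 bases before to 50 after each start) were given for 34 members, and those of Myc, Tcof1, Fbl, Bop1, Npm1 and Srm were not used here. The palindrome CACGTG was present in 8 of the 34 members (23.5%), in 30 of 106 other genes of the same pathways (28.3%), and in 8.09% of all 27025 genes with a promoter (8.91% of the 17492 coding for protein). The EBF1 motif, searched as TCCC and GGGA with any 2 bases between them, which also reads alike on both strands, was in none of the 34 and in 1.06% of all genes. Each E-box is printed in capitals with up to 10 bases on each side, along the strand of its gene.
Max, 3 bases before the start, E-box at chr12:76962246-76962251, minus strand: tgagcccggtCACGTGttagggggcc
Rrn3, 215 bases before the start, E-box at chr16:13780484-13780489, plus strand: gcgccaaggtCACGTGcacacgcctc
Rrn3, 48 bases before the start, E-box at chr16:13780651-13780656, plus strand: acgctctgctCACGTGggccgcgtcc
Nop2, 60 bases before the start, E-box at chr6:125131823-125131828, plus strand: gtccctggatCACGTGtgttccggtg
Nme1, 29 bases before the start, E-box at chr11:93968049-93968054, minus strand: cttgatacgcCACGTGggctcgcctt
Pes1, 2 bases after the start, E-box at chr11:3963977-3963982, plus strand: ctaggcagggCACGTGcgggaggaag
Wdr43, 17 bases after the start, E-box at chr17:71616232-71616237, plus strand: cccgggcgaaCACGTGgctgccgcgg
Utp20, 37 bases after the start, E-box at chr10:88826772-88826777, minus strand: gcactaactaCACGTGaggaaaa
Mybbp1a, 40 bases after the start, E-box at chr11:72441367-72441372, plus strand: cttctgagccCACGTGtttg

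Rrn3, whose protein recruits RNA polymerase I to ribosomal DNA, was the member with the most E-boxes, 2 of them, and its window (chr16:13780449-13780748, plus strand) is printed whole with both in capitals.
Rrn3: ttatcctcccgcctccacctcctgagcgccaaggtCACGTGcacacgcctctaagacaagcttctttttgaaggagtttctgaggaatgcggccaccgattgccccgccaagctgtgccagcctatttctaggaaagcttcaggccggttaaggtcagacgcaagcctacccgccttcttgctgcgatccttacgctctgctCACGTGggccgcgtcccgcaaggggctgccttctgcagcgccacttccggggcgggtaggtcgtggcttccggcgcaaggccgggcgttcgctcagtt
The window of Max (chr12:76962199-76962498, minus strand), MYC's own partner, has its E-box next to the start.
Max: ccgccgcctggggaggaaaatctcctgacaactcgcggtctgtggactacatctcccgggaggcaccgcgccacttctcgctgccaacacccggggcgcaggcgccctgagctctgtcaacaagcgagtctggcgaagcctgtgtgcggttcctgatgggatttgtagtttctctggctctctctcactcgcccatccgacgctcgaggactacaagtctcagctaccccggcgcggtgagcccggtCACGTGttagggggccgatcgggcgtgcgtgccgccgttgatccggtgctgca
These matches are letters in a window and do not show binding.

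Between EBF1ΔC and EBF1wt, Myc was 2.81-fold lower and its antagonist Mxd1 was 2.15-fold higher in EBF1ΔC cells, and these were the only members called. Of the 35 members outside the MYC network, 6 passed as lower and 29 did not pass. By sign alone, 32 of these 35 and 35 of all 40 members lay below 0, with a median of -0.28 for the 40, while 6165 of the 12034 genes tested lay below 0, with a median of -0.01. By the adjusted p, 7 members fell (Myc, Polr1a, Polr1b, Nolc1, Wdr12, Rrp1b and Srm), 1 rose (Mxd1), and 32 did not pass. With slide as a fixed block, which used the 2 slides that both groups share and left 2 residual degrees of freedom, 0 members fell (limma; 14 were lower at an unadjusted p under 0.05) and Mxd1 still rose. Over all genes tested, 9.02% passed, 4.94% as lower and 4.08% as higher. With the 2-fold limit these shares were 2.7% in all, 1.33% lower and 1.37% higher. At an unadjusted p under 0.05 (limma), 29 members were lower and 1 higher, against 1659 lower and 1374 higher of the 12034 genes. Without the 5 genes of the MYC network, 26 were lower and 0 higher at the unadjusted p, and the median was the same, -0.28. Single genes of the lists kept for other cell types also differed between these groups. Lyz2, the myeloid lysozyme gene, had a mean level of 3.59 in EBF1ΔC and 0.49 in EBF1wt (limma adjusted p = 0.0211) and carried the summed signal of the 6 myeloid genes, 3.03 to 4.01 in EBF1ΔC and -1.13 to 1.47 in EBF1wt on the log2 scale. The other myeloid genes, Csf1r, Itgam, Cd14, Mpo and Elane, were above background on at most 1 array of either group. Of the 5 stromal genes, Sparc was above background on 3 EBF1ΔC arrays and 0 EBF1wt arrays and carried the sum, -1.56 to -1.29 in EBF1ΔC and -4.51 to -4.18 in EBF1wt. Col1a2 differed by 0.14 (limma adjusted p = 0.813), and Col1a1, Col3a1 and Pdgfrb were above background on no array. The part of these differences, and of the higher Ebf1 signal, in those of the members was not tested.

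**Figure D1:**
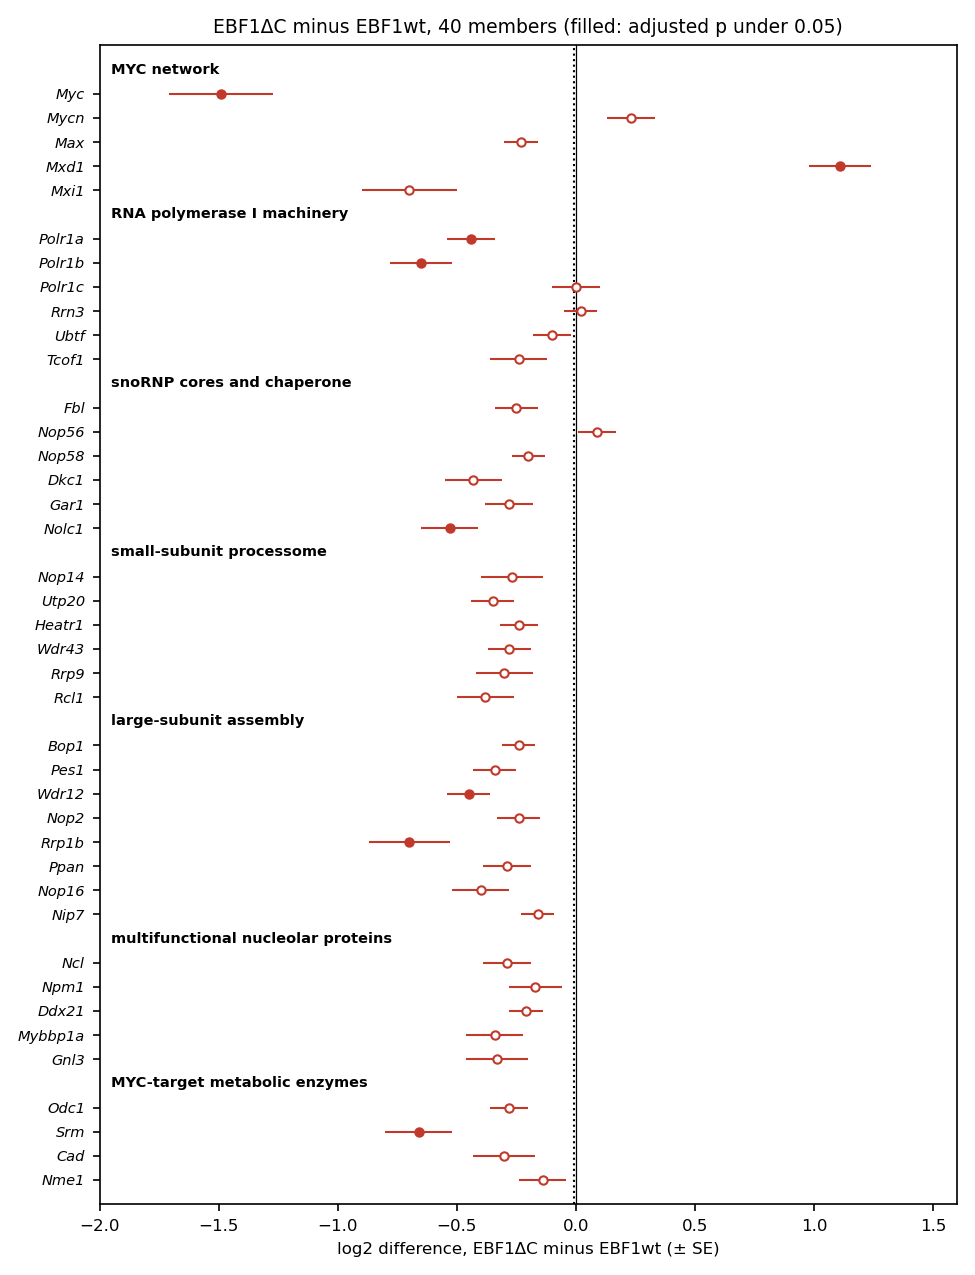
Difference between EBF1ΔC and EBF1wt (log2, horizontal axis) for the 40 members, grouped by role; points are model estimates, bars are ± SE, filled points passed at an adjusted p under 0.05, and the dotted line is the median of all genes tested (-0.01). Myc (-1.49) and Mxd1 (1.11) stand apart, and 35 of 40 points lie left of 0.

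Myc had a level of 3.20, 3.39 and 3.16 in the EBF1ΔC arrays, 4.48, 5.32 and 4.41 in the EBF1wt arrays, and 4.17, 4.04 and 3.92 in the Mock arrays. The 3 groups did not overlap: EBF1wt was highest, Mock between, EBF1ΔC lowest, and EBF1wt replicate 2 was the highest array of all. The difference of EBF1ΔC from EBF1wt was -1.49 ± 0.22 (limma adjusted p = 0.00604). All 3 Myc probes gave nearly the same difference, -1.49, -1.47 and -1.45, and the probe that stood for the gene lies on chromosome 15 at 61821516 to 61821576 in the mm9 build of the files. Within the slides that both groups shared, EBF1ΔC minus EBF1wt was -2.17 on the slide of EBF1wt replicate 2 and -1.21 on the other. With slide as a fixed block, the difference was -1.69 and no longer passed (limma adjusted p = 0.0715). It passed when any 1 array was left out, at -1.65 to -1.20.

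Mxd1, a repressor that competes with MYC for MAX, had a level of -0.49, -0.46 and -0.76 in EBF1ΔC, -1.72, -1.77 and -1.54 in EBF1wt, and 1.28, 1.17 and 1.59 in Mock. The groups were again fully apart, but in another order than for Myc, with Mock highest and EBF1wt lowest. Mxd1 was 1.11 ± 0.13 higher in EBF1ΔC than in EBF1wt (limma adjusted p = 0.0022), 1.01 and 1.05 within the 2 shared slides, and 1.03 with slide as a fixed block (limma adjusted p = 0.0478). A second Mxd1 probe differed by 0.95 in the same direction, but did not pass (limma adjusted p over all probes = 0.0583). It was well above background on 0 of 3 EBF1wt arrays.

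The remaining network members did not pass between EBF1ΔC and EBF1wt. Mxi1, the other repressor, had a level of -0.45, -0.41 and -0.08 in EBF1ΔC, 0.08, 0.85 and 0.22 in EBF1wt, and -0.23, -0.52 and -0.21 in Mock. All EBF1ΔC arrays lay below all EBF1wt arrays, so its difference had the sign of Myc's and not of Mxd1's, at -0.70 ± 0.20 (limma adjusted p = 0.0694). Max, the shared partner, had a level of 3.93, 3.85 and 4.00 in EBF1ΔC, 4.15, 4.22 and 4.09 in EBF1wt, and 3.71, 3.74 and 3.69 in Mock, and differed by -0.23 ± 0.07 (limma adjusted p = 0.0865). Mycn, a paralogue of Myc that binds the same sites, had a level of 3.52, 3.70 and 3.85 in EBF1ΔC, 3.48, 3.54 and 3.39 in EBF1wt, and 3.77, 3.58 and 3.58 in Mock. Its groups overlapped, and the difference between EBF1ΔC and EBF1wt was 0.23 ± 0.10 (limma adjusted p = 0.217).

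**Figure D2:**
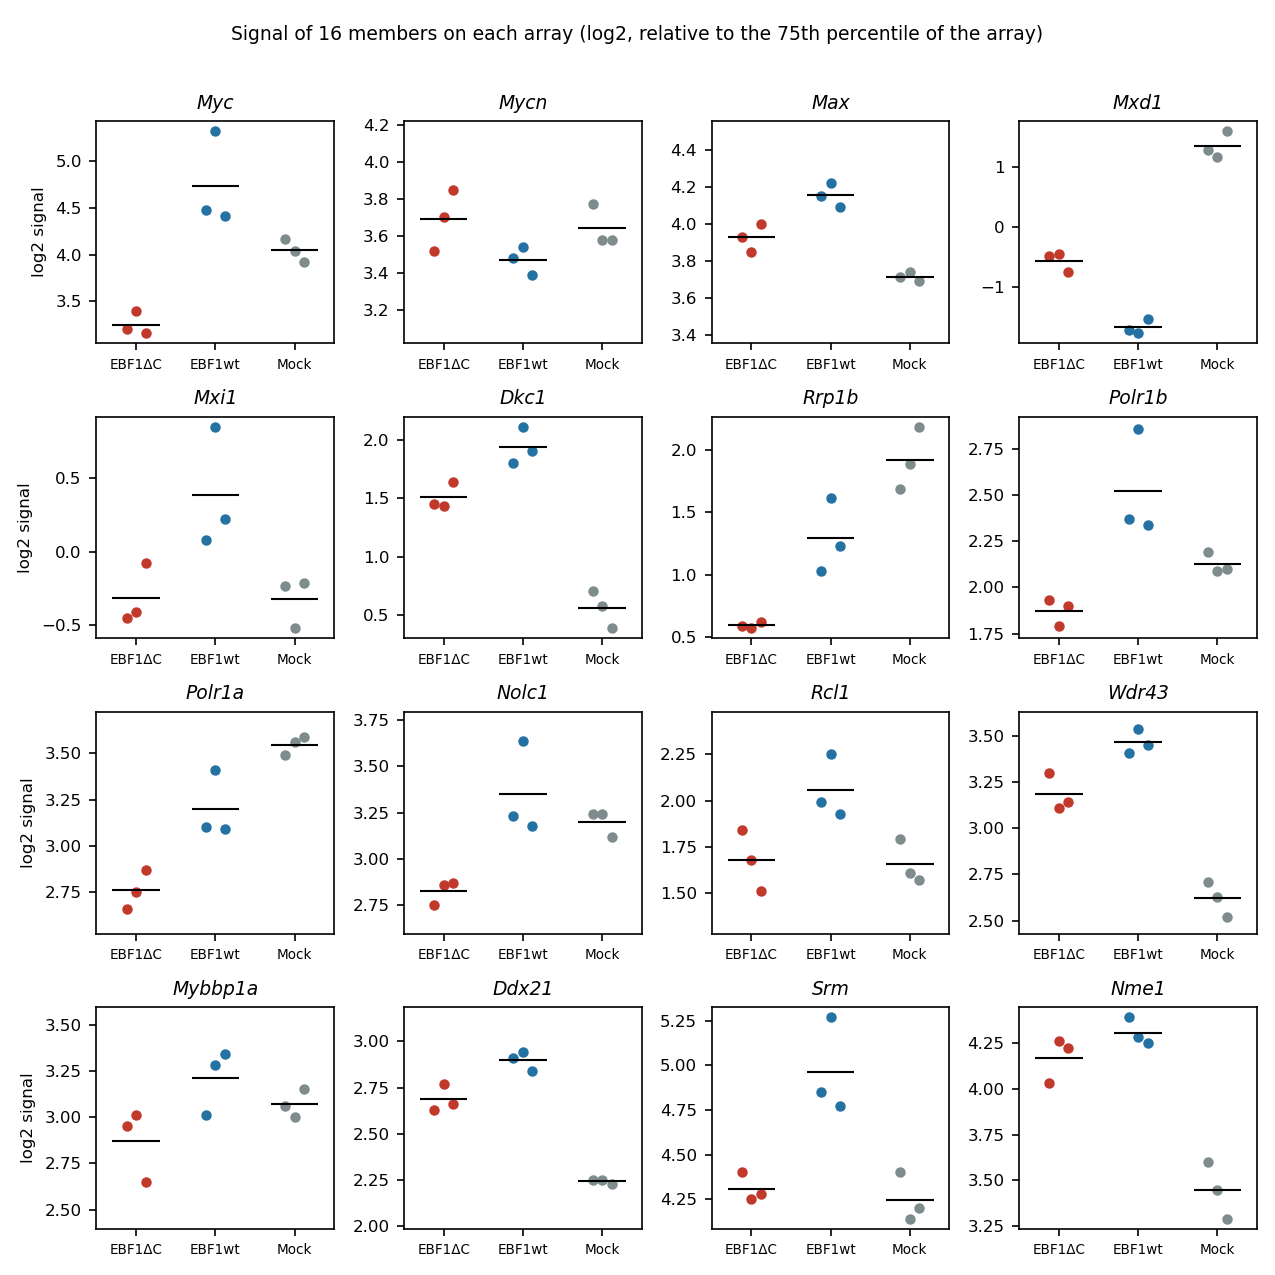
Level (log2 signal relative to the 75th percentile of the array, vertical axis, own range per gene) of 16 members on the 3 arrays of EBF1ΔC, EBF1wt and Mock; points are arrays in order of replicate number and lines are group means. Myc is lowest in EBF1ΔC (3.16 to 3.39), and Mxd1 is lowest in EBF1wt (-1.77 to -1.54).

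Among the 6 genes of RNA polymerase I and its cofactors, 2 fell in EBF1ΔC, and both encode the large catalytic subunits of the enzyme. Polr1b had a level of 1.93, 1.79 and 1.90 in EBF1ΔC, 2.37, 2.86 and 2.34 in EBF1wt, and 2.19, 2.09 and 2.10 in Mock, a difference of -0.65 ± 0.13 from EBF1wt (limma adjusted p = 0.022). Polr1a had a level of 2.66, 2.75 and 2.87 in EBF1ΔC, 3.10, 3.41 and 3.09 in EBF1wt, and 3.49, 3.56 and 3.59 in Mock, a difference of -0.44 ± 0.10 (limma adjusted p = 0.0355). For both subunits every EBF1ΔC array lay below every other array. The other 4 did not pass: Polr1c, a subunit shared with RNA polymerase III, at 0.00, the initiation factor Rrn3 at 0.02, the ribosomal DNA binding factor Ubtf at -0.10 and the nucleolar phosphoprotein Tcof1 at -0.24.

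The core proteins of small nucleolar ribonucleoproteins (snoRNPs), which guide methylation and pseudouridylation of ribosomal RNA, and the chaperone Nolc1 formed the next role. Only Nolc1, which binds these particles in the nucleolus and in Cajal bodies, fell, by the adjusted p alone and not by 2-fold. It had a level of 2.75, 2.86 and 2.87 in EBF1ΔC, 3.23, 3.64 and 3.18 in EBF1wt, and 3.24, 3.24 and 3.12 in Mock, a difference of -0.53 ± 0.12 from EBF1wt (limma adjusted p = 0.0331). Every EBF1ΔC array lay below all arrays of the other groups. Dkc1, the pseudouridine synthase, missed the threshold at -0.43 ± 0.12 (limma adjusted p = 0.0551). The methyltransferase Fbl and its partners Nop58 and Nop56 differed by -0.25, -0.20 and 0.09, and Gar1, a partner of Dkc1, by -0.28.

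In the small-subunit processome, the complex that cleaves the precursor around the 18S RNA, 0 of 6 members passed (limma; 5 at an unadjusted p under 0.05), and all 6 lay below 0, between -0.38 and -0.24. The widest difference was that of Rcl1, an RNA cleavage factor, with a level of 1.84, 1.68 and 1.51 in EBF1ΔC, 1.99, 2.25 and 1.93 in EBF1wt, and 1.79, 1.61 and 1.57 in Mock. EBF1ΔC and EBF1wt did not overlap there, and the difference was -0.38 ± 0.12 (limma adjusted p = 0.0907). Utp20 (-0.35), Rrp9 (-0.30), Wdr43 (-0.28), Nop14 (-0.27) and Heatr1 (-0.24), all processome components, followed.

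All 8 members that assemble the large subunit lay below 0, and 2 of them fell. Rrp1b, a nucleolar RRP1 homologue, had a level of 0.59, 0.57 and 0.62 in EBF1ΔC, 1.03, 1.62 and 1.23 in EBF1wt, and 1.69, 1.89 and 2.19 in Mock, a difference of -0.70 ± 0.17 from EBF1wt (limma adjusted p = 0.0356). Its 3 groups did not overlap, with EBF1ΔC lowest and Mock highest. Wdr12, which forms the PeBoW complex with Pes1 and Bop1, fell by 0.45 on the log2 scale (SE 0.09, limma adjusted p = 0.022). Its partners Pes1 and Bop1 differed by -0.34 and -0.24 and did not pass (limma adjusted p = 0.053 and 0.0748). Nop16 (-0.40), Ppan (-0.29), the RNA methyltransferase Nop2 (-0.24) and Nip7 (-0.16) did not pass either.

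Of the 5 nucleolar proteins with several roles, 0 passed (limma; 4 at an unadjusted p under 0.05), and all 5 lay below 0. Mybbp1a, a nucleolar protein named for its binding to MYB, had a level of 2.95, 3.01 and 2.65 in EBF1ΔC, 3.01, 3.28 and 3.34 in EBF1wt, and 3.06, 3.0 and 3.15 in Mock, and its groups touched. The difference was -0.34 ± 0.12 (limma adjusted p = 0.13), followed by the nucleolar GTPase Gnl3 at -0.33, nucleolin (Ncl) at -0.29, the RNA helicase Ddx21 at -0.21 and nucleophosmin (Npm1) at -0.17. Of the 4 MYC-target enzymes, Srm, which makes spermidine, fell: its level was 4.40, 4.25 and 4.28 in EBF1ΔC, 4.85, 5.27 and 4.77 in EBF1wt, and 4.40, 4.14 and 4.20 in Mock. EBF1ΔC lay below EBF1wt on every array and overlapped with Mock, and the difference from EBF1wt was -0.66 ± 0.14 (limma adjusted p = 0.0231). Ornithine decarboxylase (Odc1), the step before it, differed by -0.28, the pyrimidine synthesis enzyme Cad by -0.30 and the nucleoside diphosphate kinase Nme1 by -0.14, and these did not pass.

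The difference shared by the ribosome genes was described per array by the median level of the 40 members minus that of all genes tested. This was 2.52, 2.57 and 2.41 in EBF1ΔC, 2.67, 2.79 and 2.64 in EBF1wt, and 2.56, 2.56 and 2.53 in Mock. Every EBF1ΔC array lay below every EBF1wt array, and the Mock values lay within the range of EBF1ΔC. The lowest and the highest value were those of EBF1ΔC replicate 3 and EBF1wt replicate 2, the 2 arrays with the lowest weights, which share a slide. On that slide the members' median difference between EBF1ΔC and EBF1wt was -0.47 (all genes -0.02), with 38 of 40 members below the median of all genes. On the other shared slide it was -0.18 (all genes 0.00), with 33 of 40 below. Without the 2 arrays of the first slide, the median of the members minus that of all genes was -0.18, and 6 members fell and 1 rose.

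**Figure D3:**
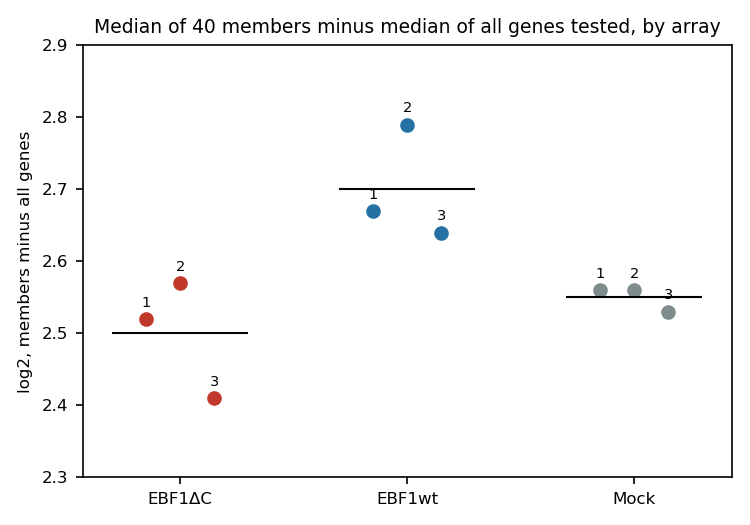
Median level of the 40 members minus the median of all genes tested (log2, vertical axis) on each array, numbered by replicate, with the group mean as a line; the axis does not start at 0. EBF1ΔC lies at 2.41 to 2.57, EBF1wt at 2.64 to 2.79 and Mock at 2.53 to 2.56.

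Myc and Mxd1 passed whichever array was left out. The other 6 members, which passed by the adjusted p and differed less than 2-fold, lay close to the threshold: with single arrays left out, Polr1b did not pass in 2 of 9 cases, Srm in 3, Wdr12 in 4, Nolc1 and Rrp1b in 6 each and Polr1a in 7, with their differences still below 0 each time. With slide as a fixed block they did not pass either, at -0.68 for Polr1b, -0.68 for Srm, -0.41 for Wdr12, -0.60 for Nolc1, -0.82 for Rrp1b and -0.49 for Polr1a (limma adjusted p between 0.0966 for Rrp1b and 0.252 for Wdr12). The number of members that fell was 1 without EBF1ΔC replicate 1 or without replicate 2, 3 without EBF1ΔC replicate 3, and 4 without Mock replicate 2.

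Of the other genes of the same pathways, 128 in 6 lists, 123 were tested. Between EBF1ΔC and EBF1wt, 15 fell, 1 rose and the rest did not pass, 102 lay below 0, and the median was -0.19. Of all genes tested 9.02% passed, 4.94% as lower and 4.08% as higher, and of these pathway genes 13% passed. Those that fell included Nat10, the RNA cytidine acetyltransferase (-0.46), and Pwp2 (-0.39) of the small-subunit processome, Nle1 (-0.45) and Noc2l (-0.41) of large-subunit assembly, and the one-carbon and purine enzymes Mthfd1 (-0.47) and Gart (-0.49). The one that rose was Mxd3, another MAX-binding repressor (0.55). By list, 5 of 34 large-subunit genes, 4 of 33 processome genes and 6 of 24 MYC-target metabolism and translation genes fell. These counts were not tested against the share of all genes. In the list of 9 other MYC network genes 0 fell, 1 rose, 6 lay above 0 and the median was 0.05. Of 11 further snoRNP proteins and 12 further genes of RNA polymerase I, 0 passed (limma; 3 and 0 at an unadjusted p under 0.05).

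EBF1wt cells, set against Mock, had more members higher than lower, with a count that depended on the setting. Over the other settings without a 2-fold limit, 19 to 35 members rose and 1 to 9 fell. The values that follow are those of the reported fit. Of the 40 members 25 rose, 6 fell and 9 did not pass, at a median of 0.42, while all genes tested had 0.12. Over all genes, 66.5% passed, 39.4% as higher and 27.1% as lower, so a passed test was common in this comparison. Only Dkc1 was called as higher (2-fold background 6.57%) and only Mxd1 as lower (12.9%). All core snoRNP proteins other than Nop56 rose, and 4 of the 5 multifunctional nucleolar proteins did. Those that fell were Mxd1, Polr1a, Tcof1, Nop2, Rrp1b and Odc1.

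In EBF1ΔC against Mock, the members' median was close to that of all genes: 18 rose, 9 fell and 13 did not pass, at a median of 0.12 against 0.10. Over all genes, 64.2% passed, 37.4% as higher and 26.8% as lower. No member was called as higher (2-fold background 6.23%), and Mxd1 and Rrp1b were called as lower (11.9%). Both comparisons share the Mock arrays, so their values are given side by side and not as independent results.

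**Figure D4:**
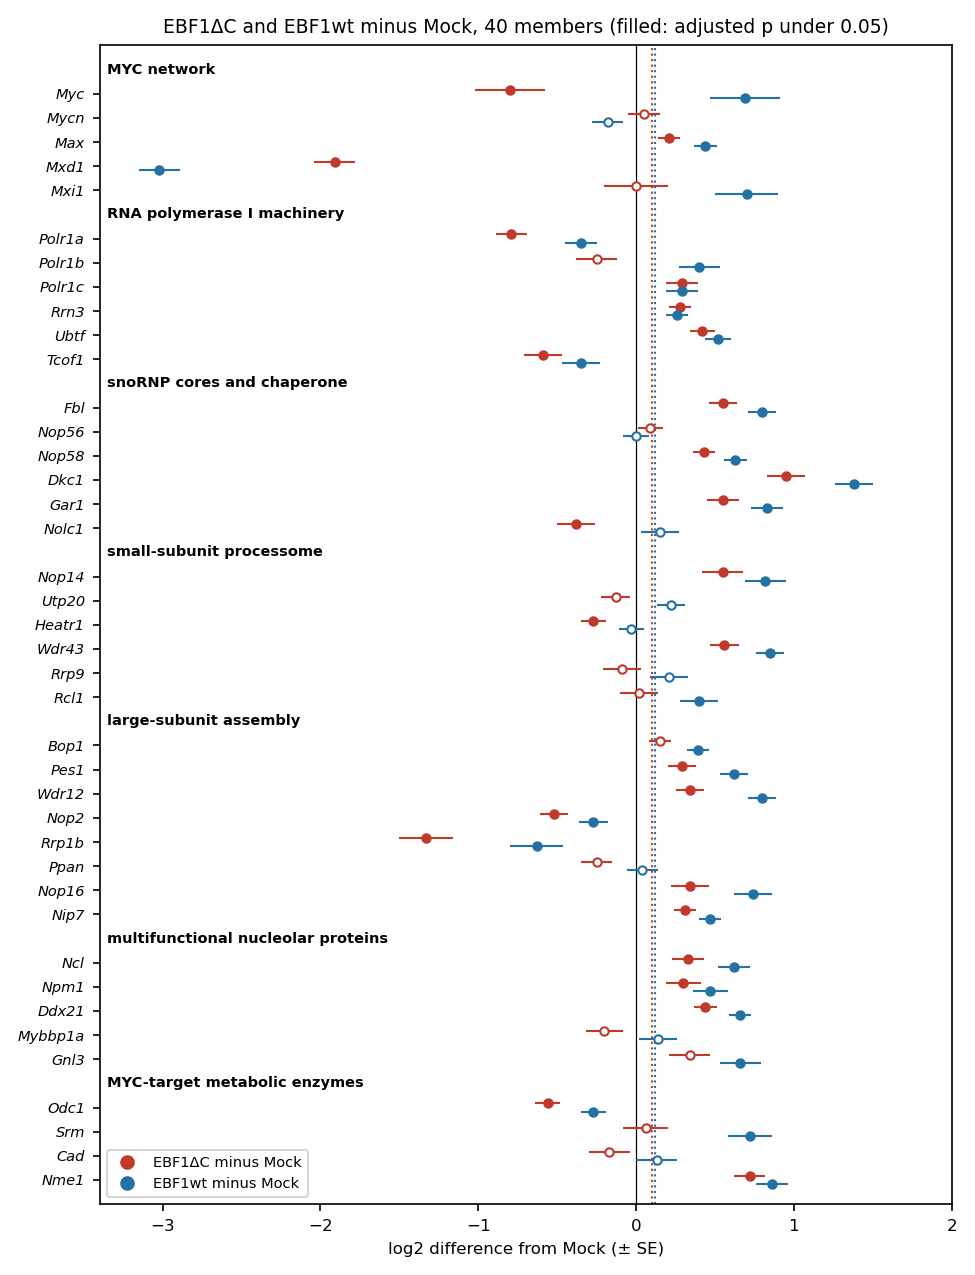
Differences of EBF1ΔC (red) and EBF1wt (blue) from Mock (log2, horizontal axis) for the 40 members, by role; points are model estimates, bars are ± SE, filled points passed at an adjusted p under 0.05, and dotted lines are the medians of all genes tested (0.10 for EBF1ΔC, 0.12 for EBF1wt). Myc lies left of 0 in EBF1ΔC (-0.80) and right of 0 in EBF1wt (0.69).

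Myc was below Mock in EBF1ΔC, by -0.80 ± 0.22 (limma adjusted p = 0.0127), and above Mock in EBF1wt, by 0.69 ± 0.22 (limma adjusted p = 0.0225). With each array scaled to its median, the difference of EBF1ΔC from Mock was -0.25 (limma adjusted p = 0.427). With quantile normalization, that of EBF1wt was 0.47 (limma adjusted p = 0.0908). The EBF1wt difference also missed the threshold without Mock replicate 2 and without Mock replicate 3, and ranged from 0.40 to 0.86 over all arrays left out. The 3 Myc probes gave -0.80, -0.50 and -0.88 in EBF1ΔC and 0.69, 0.97 and 0.57 in EBF1wt, and the second of them did not pass in EBF1ΔC (limma adjusted p over all probes = 0.0973). Mxd1 was below Mock in both, by -1.91 ± 0.13 in EBF1ΔC (limma adjusted p = 9.55e-06) and by -3.02 ± 0.13 in EBF1wt (limma adjusted p = 7.03e-07), 8.11-fold lower in EBF1wt. Max rose by 0.21 in EBF1ΔC and by 0.44 in EBF1wt. Mxi1 rose in EBF1wt, by 0.70 ± 0.20, and stood at 0.00 in EBF1ΔC. Mycn passed in neither by its stated probe, while its other probe differed by -0.34 in EBF1wt (limma adjusted p over all probes = 0.0246) and by -0.01 in EBF1ΔC.

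Dkc1 showed the widest rise against Mock. Its level was 1.45, 1.43 and 1.64 in EBF1ΔC, 1.80, 2.11 and 1.90 in EBF1wt, and 0.71, 0.58 and 0.39 in Mock, without overlap between any of the groups. The difference from Mock was 0.95 ± 0.12 in EBF1ΔC and 1.38 ± 0.12 in EBF1wt (limma adjusted p = 0.000187 and 2.34e-05). Nme1, a kinase that balances nucleoside triphosphates, had a level of 4.03, 4.26 and 4.22 in EBF1ΔC, 4.39, 4.28 and 4.25 in EBF1wt, and 3.60, 3.45 and 3.29 in Mock. Both EBF1 groups lay above Mock and overlapped with each other, with differences from Mock of 0.72 ± 0.10 in EBF1ΔC and 0.86 ± 0.10 in EBF1wt. Wdr43 had a level of 3.30, 3.11 and 3.14 in EBF1ΔC, 3.41, 3.54 and 3.45 in EBF1wt, and 2.71, 2.63 and 2.52 in Mock, with differences from Mock of 0.56 ± 0.09 in EBF1ΔC and 0.85 ± 0.09 in EBF1wt. Ddx21, an RNA helicase, had a level of 2.63, 2.77 and 2.66 in EBF1ΔC, 2.91, 2.94 and 2.84 in EBF1wt, and 2.25, 2.25 and 2.23 in Mock, with differences of 0.44 ± 0.07 in EBF1ΔC and 0.66 ± 0.07 in EBF1wt. For both genes the order was EBF1wt, EBF1ΔC, Mock on every array, although other probes of these genes gave other signs, as described further on.

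Besides Mxd1, 5 members fell in both EBF1 groups against Mock. Rrp1b differed by -1.33 ± 0.17 in EBF1ΔC (limma adjusted p = 0.000204) and by -0.63 ± 0.17 in EBF1wt (limma adjusted p = 0.00961). Polr1a differed by -0.79 and -0.35, Tcof1 by -0.59 and -0.35, Nop2 by -0.52 and -0.27 and Odc1 by -0.56 and -0.27, each value for EBF1ΔC before that for EBF1wt. A second Odc1 probe on the same mRNA gave -0.30 and 0.11, and did not pass in EBF1wt (limma adjusted p over all probes = 0.243). Heatr1 (-0.27) and Nolc1 (-0.38) fell in EBF1ΔC and did not pass in EBF1wt (-0.03 and 0.15). Srm (0.72) and Polr1b (0.40) rose in EBF1wt and did not pass in EBF1ΔC (0.06 and -0.25). Fbl (0.55 and 0.80), Nop58 (0.43 and 0.63), Gar1 (0.55 and 0.83), Nop14 (0.55 and 0.82), Ubtf (0.42 and 0.52), Wdr12 (0.34 and 0.80), Nop16 (0.34 and 0.74), Pes1 (0.29 and 0.62), Ncl (0.33 and 0.62), Nip7 (0.31 and 0.47) and Npm1 (0.30 and 0.47) rose in both, again with EBF1ΔC first. Polr1c (0.29 in both) and Rrn3 (0.28 and 0.26) rose to about the same size. Bop1 (0.39), Rcl1 (0.40) and Gnl3 (0.66) rose in EBF1wt and lay at 0.15, 0.02 and 0.34 in EBF1ΔC without passing. Ppan, Utp20, Rrp9, Cad, Mybbp1a and Nop56 (by its stated probe) passed in neither. With single arrays left out, 19 of the 27 members that passed in EBF1ΔC and 22 of the 31 in EBF1wt passed each time. Those that did not, in EBF1ΔC, were Nop16 and Npm1 (missed in 6 of 9 cases each), Max (5), Pes1 (4), Ncl, Nolc1 and Polr1c (3 each) and Heatr1 (2). In EBF1wt they were Tcof1 (5), Nop2, Polr1a, Polr1c and Rcl1 (3 each), Myc and Polr1b (2 each) and Mxi1 and Odc1 (1 each).

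The scaling mattered here. When arrays were scaled to their median probe in place of the 75th percentile, the median of all genes moved to 0.65 in EBF1ΔC and 0.82 in EBF1wt against Mock, and the members split as 24 higher and 2 lower in EBF1ΔC and 35 higher and 1 lower in EBF1wt. Quantile normalization gave 8 higher and 15 lower in EBF1ΔC and 19 higher and 9 lower in EBF1wt. Relative to all genes, the members' median was 0.02 higher in EBF1ΔC and 0.30 higher in EBF1wt with either percentile or median scaling, and -0.09 and 0.16 with quantile normalization. Percentile and median scaling each subtract 1 value per array, so their equal values here were fixed in advance. Of the members that passed under 1 of the scalings or more, several had opposite signs between scalings in at least 1 comparison with Mock. They included Nop2, Heatr1, Nolc1, Polr1a, Tcof1, Odc1, Mycn, Nop56, Rrp1b, Ncl, Polr1b and Srm. In EBF1ΔC against Mock, Polr1b gave -0.40 with quantile normalization (limma adjusted p = 0.0273) and 0.30 with median scaling. Srm gave -0.14 and 0.61 there, and passed with median scaling (limma adjusted p = 0.0264). The percentage of probes well above background was 51.4 to 53.4 in EBF1ΔC, 50.7 to 51.1 in EBF1wt and 54.3 to 56.9 in Mock. Genes of the lists for other cell types also moved with Mock: the log2 of the summed signal of the erythroid list was 1.85 to 2.95 in EBF1ΔC, 2.23 to 2.96 in EBF1wt and 8.98 to 9.18 in Mock. It was carried by the globin gene Hbb-bt, with a mean level of 1.81 in EBF1ΔC, 2.03 in EBF1wt and 8.56 in Mock, while Alas2 was above background on no array. The myeloid sum was -1.69 to -1.22 in Mock and the stromal sum -4.01 to -3.46. The T cell list, 5 genes with a probe, summed to -4.15 to -3.71 in EBF1ΔC, -4.38 to -3.57 in EBF1wt and -2.35 to -1.9 in Mock, with Cd4 and Cd8a above background on no array. Their part in the members' differences was not tested.

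Of the 123 other pathway genes tested, 79 rose and 6 fell in EBF1wt against Mock, with a median of 0.43, and 59 rose and 8 fell in EBF1ΔC against Mock, with a median of 0.25. Of them 69.1% passed in EBF1wt, beside 66.5% of all genes tested, and 54.5% in EBF1ΔC, beside 64.2%. The highest of these pathway genes in each comparison included Nol11 (1.13 in EBF1ΔC, 1.12 in EBF1wt) and Utp18 (0.95 and 1.13) of the processome. Others were Nmd3 (1.00 and 1.16), an adaptor for export of the large subunit, and Eif4ebp1 (1.14 and 1.33), which restrains translation initiation. The MAX-binding repressor Mxd3 rose by 1.28 in EBF1ΔC and by 0.73 in EBF1wt, opposite in direction to Mxd1. Taf1d, a subunit of the promoter selectivity factor of RNA polymerase I, fell, with differences of -2.02 in EBF1ΔC and -1.74 in EBF1wt, and the cyclin gene Ccnd2 differed by -1.53 and -1.82.

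Members with several probes showed how far a value depends on the probe. Between EBF1ΔC and EBF1wt the probes of 1 gene lay close together, with a median range of 0.15 over the 23 genes with more than 1 probe. No gene had probes that passed in opposite directions, but only 1 probe passed as higher and 14 as lower. That count therefore says little about agreement. By sign, without passing, probes were opposite for Pes1 (-0.34 and 0.12), Nip7 (-0.16 and 0.12), Cad (-0.38 to 0.13) and Nop56 (0.09 and -0.37). Of the 73 probes 62 lay below 0. Against Mock the median range was 0.52 in EBF1ΔC and 0.40 in EBF1wt. Probes passed in opposite directions for 5 genes in EBF1ΔC (Ddx21, Nolc1, Nop14, Rrn3 and Wdr43) and for 3 in EBF1wt (Ddx21, Rrn3 and Rrp1b).

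**Figure D5:**
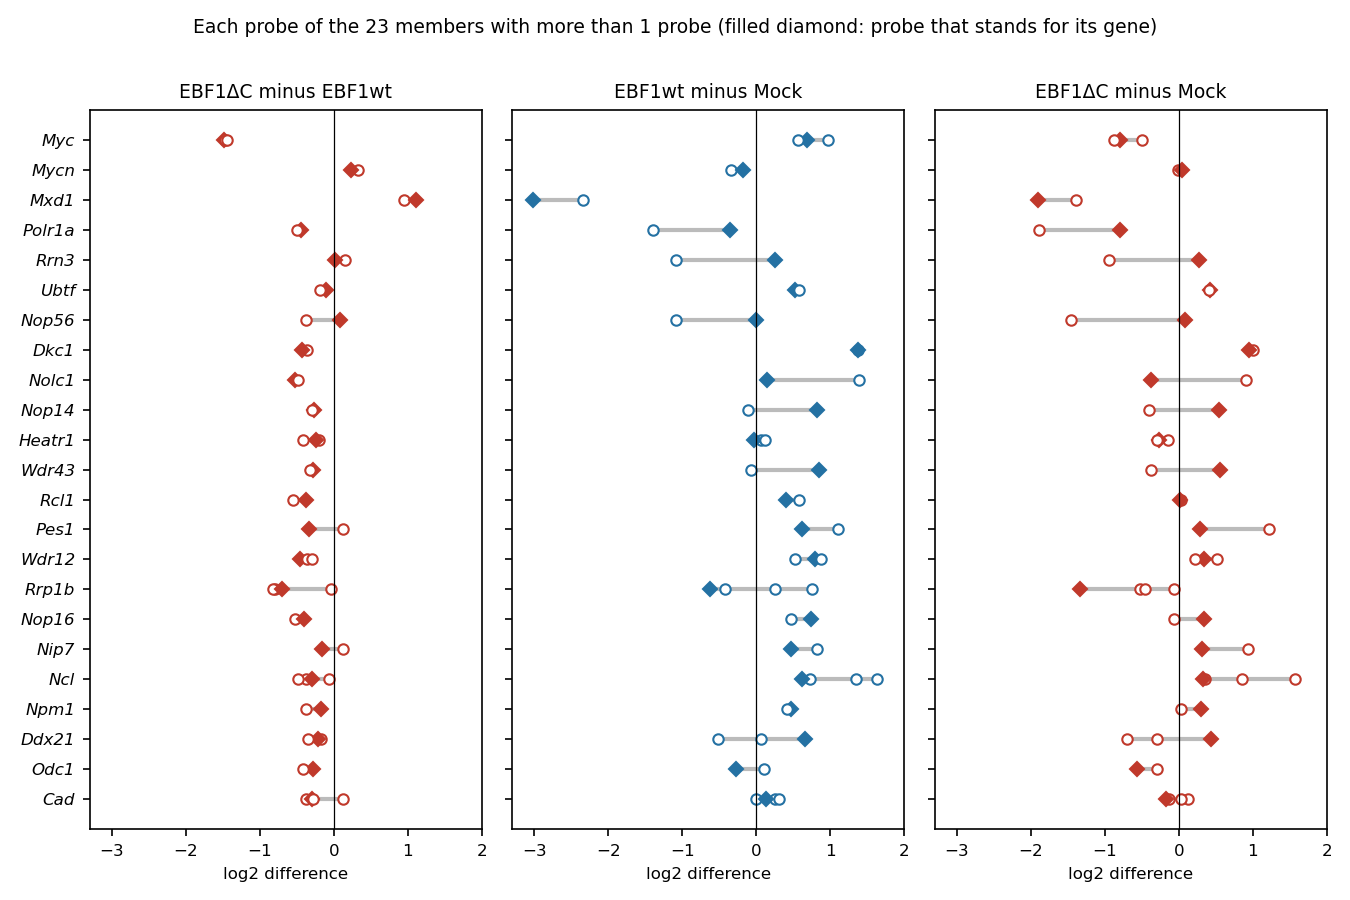
Difference of each probe (log2, horizontal axis) for the 23 members with more than 1 probe, in 3 panels, EBF1ΔC minus EBF1wt, EBF1wt minus Mock and EBF1ΔC minus Mock; filled diamonds are the probes that stand for their genes, open circles the others, and grey bars span the probes of a gene. The bars have a median length of 0.15 in the first panel, 0.40 in the second and 0.52 in the third.

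The widest range in EBF1ΔC against Mock, 1.55, was that of Nop56. Its stated probe passed in no comparison, while its second probe was lower than Mock, with -1.46 in EBF1ΔC and -1.09 in EBF1wt (limma adjusted p over all probes = 0.000429 and 0.00195). For Rrn3, the mRNA probe rose by 0.28 in EBF1ΔC and 0.26 in EBF1wt, while a probe designed on a cDNA clone differed by -0.94 and -1.09. The probes of Nolc1, both designed on the same mRNA, gave -0.38 and 0.91 in EBF1ΔC against Mock, and 0.15 and 1.39 in EBF1wt against Mock, but -0.53 and -0.48 between EBF1ΔC and EBF1wt. Wdr43 probes gave 0.56 and -0.38 in EBF1ΔC against Mock, and 0.85 and -0.07 in EBF1wt. Those of Ddx21 gave 0.44, -0.29 and -0.70 in EBF1ΔC, and 0.66, 0.07 and -0.52 in EBF1wt, and those of Nop14 gave 0.55 and -0.40 in EBF1ΔC, and 0.82 and -0.11 in EBF1wt. For Rrp1b, 4 probes spanned -1.33 to -0.06 in EBF1ΔC and -0.63 to 0.76 in EBF1wt against Mock. Between EBF1ΔC and EBF1wt 3 of the 4 gave -0.82, -0.80 and -0.70, and the probe on a cDNA clone gave -0.04. Directions of these genes against Mock are therefore those of the stated probe.

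Changes of members with and without the E-boxes printed above are given side by side, without a test. The 8 members with CACGTG had a median of -0.26 between EBF1ΔC and EBF1wt. Of these 8, 0 passed, beside 9.02% of all genes tested, a share that a count among 8 cannot tell from 0. The 26 with a promoter but without the motif had -0.29. Against Mock the medians were 0.24 with and 0.07 without the motif in EBF1ΔC, and 0.35 and 0.40 in EBF1wt. Rrn3, with 2 E-boxes, differed by 0.02 between EBF1ΔC and EBF1wt, and Max by -0.23. Polr1b, Polr1a, Nolc1, Wdr12 and Rrp1b, which fell, had no E-box in the 300 bases given.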

How the data were processed

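Total RNA of 9 samples was read in 1 colour (Cy3) on Agilent mouse arrays. The deposited intensity per spot is background-subtracted and detrended, not normalized between arrays, per the file headers, which name Feature Extraction 10.5.1.1; the submitters' processing notes name 9.1. The raw spot intensity deposited with it served in 1 alternative. The authors' deposited log2 values, whose normalization is not given in the sources used here, served in another. They had a median of 6.74 on every array. Array by array, they correlated at 0.9991 to 0.9993 with the raw intensity after normexp and quantile normalization. These 2 alternatives are therefore not independent checks. Groups came from the sample titles; the source name of EBF1wt replicate 3 omits tamoxifen, which its description mentions.

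Outlier spots (73 to 163 of 45018 per array) were left out, spots of a probe averaged, and the array's own 75th percentile, an intensity of 384 to 507.7, was subtracted on the log2 scale. The number of arrays limits the precision. Probes had to be well above background on every array of 1 or more groups (22355 probes, 12034 genes). Group means were fitted to all 9 arrays together in limma (version 3.58.1, under R 4.3.3 with statmod 1.5.0, and version 1.17.8 of data.table), with 6 residual degrees of freedom and Benjamini-Hochberg adjustment, tested on simulated data. Lists were described by counts and medians, with no set test. Levels per array are given for the MYC network, for called members, and in each other role for the widest change between EBF1ΔC and EBF1wt and against Mock. Of the other pathway lists, the 2 highest and 2 lowest that passed could be named. The members and lists were chosen with earlier results of these data known. Alternatives covered scaling, background, filter, probe rule, blocks and left-out arrays. Promoters are RefSeq's (GRCm38.p6), and probe positions those of the files (mm9).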

Additional observations from a re-analysis of the deposited data

How the results depend on the processing

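Between EBF1ΔC and EBF1wt, no member that passed in the reported fit or in another of the 24 settings changed sign. Mxd1 passed in every setting, but its difference lay under the 2-fold limit in some. It was 0.95 with median scaling, 0.76 with normexp and quantile normalization and 0.75 with the authors' values. The number of members that fell (7) became 2 with median scaling, 13 with normexp and quantile normalization, 11 with the authors' values, 1 without the filter on dim probes, 11 with probes above background on all 9 arrays, 11 with the mean of a gene's probes, 0 with slide as a fixed block (limma with 2 residual degrees of freedom; 14 at an unadjusted p under 0.05), 1 with only the groups compared, 16 with trended and robust moderation, 1 at 2-fold, and 1 to 7 with single arrays left out. The number that rose (1) was 2 with normexp, the authors' values and the mean of probes. The median against all genes (-0.28) was -0.18 without the slide of EBF1wt replicate 2 and EBF1ΔC replicate 3, and -0.32 to -0.20 with single arrays left out. In EBF1ΔC against Mock, 18 members rose, and 8 did with quantile normalization, 9 with normexp, 8 with the authors' values and 0 at 2-fold. There, 9 fell, and 15 did with quantile normalization, 2 with median scaling and 2 at 2-fold. The median (0.02) was -0.09 with quantile normalization, -0.05 with normexp and with the authors' values, and 0.13 without the filter. In EBF1wt against Mock, 25 rose, and 1 at 2-fold; 6 fell, and 1 with median scaling, 1 at 2-fold, and 2 to 6 with single arrays left out (2 without EBF1wt replicate 3, 3 without replicate 1). The median (0.30) was 0.16 with quantile normalization and 0.17 with normexp and with the authors' values.

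Set against the reported fit, members that passed in it or in the other setting turned sign only against Mock. In EBF1ΔC these were Nop56 (-0.27) and Ncl (-0.01) with quantile normalization, Nolc1 (0.17), Heatr1 (0.28) and Nop2 (0.03) with median scaling, Ncl (-0.02) and Npm1 (-0.17) with normexp, Npm1 (-0.02) with the authors' values, and Rrn3 (-0.33), Nop56 (-0.68), Nolc1 (0.27) and Ddx21 (-0.18) with the mean of probes. In EBF1wt they were Mycn (0.53), Polr1a (0.36), Tcof1 (0.36), Nop56 (0.70), Heatr1 (0.68), Nop2 (0.43), Rrp1b (0.08) and Odc1 (0.43) with median scaling, and Rrn3 (-0.42) with the mean of probes. Median scaling shifts all genes alike against Mock, by 0.55 in EBF1ΔC and 0.70 in EBF1wt, which fixes these signs; for the other settings the cause was not tested. Same-numbered replicates correlated between -0.18 and 0.12 and so share only a number, and not every sample correlated best with its own number; with the replicate number as a block, 2 members fell and 1 rose between EBF1ΔC and EBF1wt. Slide as a random block and the setting without that slide were chosen after seeing the data, and the first moved no count.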
